A study of Apostichopus japonicus with 3 samples.

Results

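Transcripts for the enzymes that make serine, split glycine and carry one-carbon groups on folate were followed through summer dormancy in the respiratory tree of the sea cucumber Apostichopus japonicus. The set was isotig13269, the best match of phosphoglycerate dehydrogenase, together with isotigs whose protein match names an enzyme of serine synthesis, of serine hydroxymethyl transfer, of glycine cleavage or of tetrahydrofolate chemistry. The 9 isotigs described here are among 20991 with a read in any library. An isotig is an assembled transcript, and several isotigs can come from 1 gene. Isotig13269 was chosen by its low reads in deep aestivation and arousal, so its differences from non-aestivation are described here and support nothing. The other 8 isotigs were taken by name.

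The respiratory tree is the branched organ through which sea cucumbers take up oxygen from water drawn into the body. The 3 groups were animals outside aestivation (non-aestivation), animals in deep aestivation, and animals at arousal from it. The labels name no strain, age, agent or genotype for any of them. Each stage was 1 poly(A) RNA library. At least 15 individuals were used per stage, and how their RNA was combined is not stated, so differences here are between libraries and were not checked in replicates. Ratios of read rates carry exact 95% intervals that cover counting error only.

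Serine is made from 3-phosphoglycerate, an intermediate of glycolysis, by phosphoglycerate dehydrogenase (PHGDH), phosphoserine aminotransferase (PSAT) and phosphoserine phosphatase (PSPH) in turn. Serine hydroxymethyltransferase (SHMT) then converts serine to glycine and hands the released carbon to tetrahydrofolate, and the glycine cleavage system, which includes glycine dehydrogenase (GLDC) and aminomethyltransferase (AMT), takes a further carbon from glycine. Folate enzymes interconvert these carbon units for the synthesis of nucleotides and methionine. In bulk tissue, fewer cells of a type and less RNA per cell cannot be told apart.

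Unique reads came to 0.941 M in non-aestivation, 0.887 M in deep aestivation and 0.963 M at arousal. On an isotig of 1 kb, 1 read was worth 1.06, 1.13 and 1.04 RPKM (reads per kb of isotig and per M unique reads) in that order. The 9 members together had 619, 280 and 216 reads, or 0.0658%, 0.0316% and 0.0224% of each library. No member had more than 212 reads in a library. A member entered the comparisons when it had at least 20 reads over the 3 libraries, which 6 did. All 6 would also have passed on the reads of their lower 2 libraries together, the smallest such sum being 21 for isotig13269. The rule of size counts an isotig as higher or lower where log2(RPKM + 0.5) differs by 1 or more (2-fold).

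In deep aestivation all 3 serine synthesis isotigs, 1 of them chosen for its low reads there, stood at least 2-fold below non-aestivation. So did 18.6% of all compared isotigs, and 1374 of the 5686 with a protein match. Glycine dehydrogenase and the methylenetetrahydrofolate dehydrogenase 1-like isotig (MTHFD1-like) stayed within 2-fold, and dimethylglycine dehydrogenase (DMGDH) was higher by less than 2-fold. At arousal none of the 3 low transcripts had come back to the level of non-aestivation. The plot of levels by library shows that the non-aestivation value lay above both later values for 5 of the 6 isotigs. These include isotig13269, chosen by its low later reads, and glycine dehydrogenase, whose intervals included equal rates. The share of all isotigs with this order was not counted. Over compared isotigs with a protein match the median log2 difference from non-aestivation was itself -0.36 in deep aestivation and -0.40 at arousal.

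**Figure D1:**
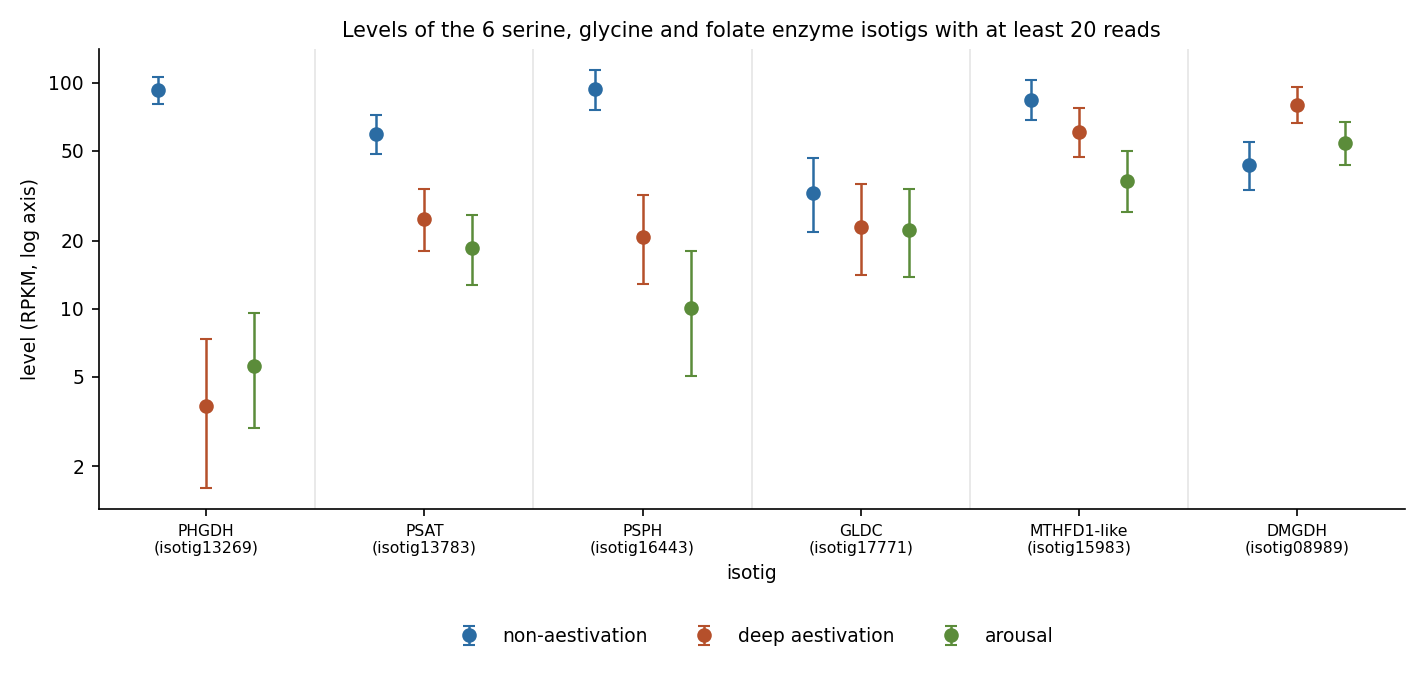
Level of each of the 6 compared isotigs (RPKM, log axis) in the non-aestivation, deep aestivation and arousal libraries, 1 point per library, with exact Poisson 95% intervals that cover counting error only. PHGDH, PSAT and PSPH sit between 59.2 and 93.4 RPKM in non-aestivation and between 3.71 and 25.0 RPKM afterwards, while DMGDH is highest in deep aestivation.

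PHGDH, the enzyme that commits 3-phosphoglycerate to serine, had 212, 8 and 13 reads on isotig13269 in non-aestivation, deep aestivation and arousal. These reads gave 92.8, 3.71 and 5.56 RPKM on an isotig of 2428 bases. Only the first library was high. Its level stood at percentile 85.3 of the 10896 compared isotigs in non-aestivation, 3.52 in deep aestivation and 7.58 at arousal. The read rate was 25.0-fold lower in deep aestivation (12.4 to 58.6) and 16.7-fold lower at arousal than in non-aestivation (9.55 to 31.9). Of all compared isotigs, 48 had a lower log2 difference in the first of these comparisons and 66 in the second. Between arousal and deep aestivation the ratio was 1.497 (0.575 to 4.17), a difference not detectable at this depth.

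The few reads left on isotig13269 overlapped little, and where along it they lay is not given. Isotigs with 1 read had exactly 49 bases covered in each library, which is the mapped length of a read. The 8 reads of deep aestivation covered 344 bases, or 43.0 bases per read, and the 13 reads of arousal covered 502 bases, or 38.6 per read, so most of them lay at separate positions. In non-aestivation 92.6% of the isotig was covered, against 14.2% and 20.7% later.

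PSAT, which adds the amino group, had 103, 41 and 33 reads on isotig13783, giving 59.2, 25.0 and 18.6 RPKM in non-aestivation, deep aestivation and arousal. It was 2.37-fold lower in deep aestivation (1.63 to 3.49) and 3.19-fold lower at arousal (2.14 to 4.88) than in non-aestivation. The interval for deep aestivation reaches below the 2-fold line. PSPH, which removes the phosphate and releases serine, had 100, 21 and 11 reads on isotig16443, giving 93.4, 20.8 and 10.05 RPKM. It was 4.49-fold lower in deep aestivation (2.78 to 7.57) and 9.30-fold lower at arousal (4.98 to 19.2).

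PSPH was also the only member called between the later 2 libraries, 2.07-fold lower at arousal than in deep aestivation. That interval ran from 0.955 to 4.76 and so included equal rates. Its log2 difference of -1.02 stood just past the line of 2-fold, and with a pseudocount of 1 in place of 0.5 it was no longer called. The nearest member short of the line in that comparison was MTHFD1-like, at -0.71. Against non-aestivation the members nearest to the line were DMGDH at 0.88, short of it, and PSAT at -1.23, past it, in deep aestivation, and MTHFD1-like at -1.18, past it, at arousal.

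Summed over the 3 isotigs, serine synthesis had 415, 70 and 57 reads. The sum was 5.59-fold lower in deep aestivation (4.33 to 7.31) and 7.45-fold lower at arousal (5.64 to 10.01). Without isotig13269, which was chosen for its low reads, the sum of PSAT and PSPH was 203, 62 and 44 reads, 3.09-fold lower (2.31 to 4.17) and 4.72-fold lower (3.39 to 6.70).

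The reads of PSAT and PSPH can be set against each other without scaling the libraries. Relative to PSAT, PSPH was 1.89-fold lower in deep aestivation than in the non-aestivation library (1.01 to 3.62) and 2.90-fold lower at arousal (1.34 to 6.73). The shares of all 3 isotigs include PHGDH, which was chosen by its low reads, and are given as a description. PHGDH took 51.1% of the reads of the 3 isotigs in the non-aestivation library (46.2 to 56.0), 11.4% in the deep aestivation library (5.07 to 21.3) and 22.8% at arousal (12.7 to 35.8). PSAT took 24.8% (20.7 to 29.3), 58.6% (46.2 to 70.2) and 57.9% (44.1 to 70.9), although its own level was lower in both later libraries. PSPH took 24.1%, 30.0% and 19.3%, with intervals that overlap. In RPKM, which is per length, PHGDH and PSPH led in non-aestivation and PHGDH was the lowest of the 3 in both later libraries.

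**Figure D2:**
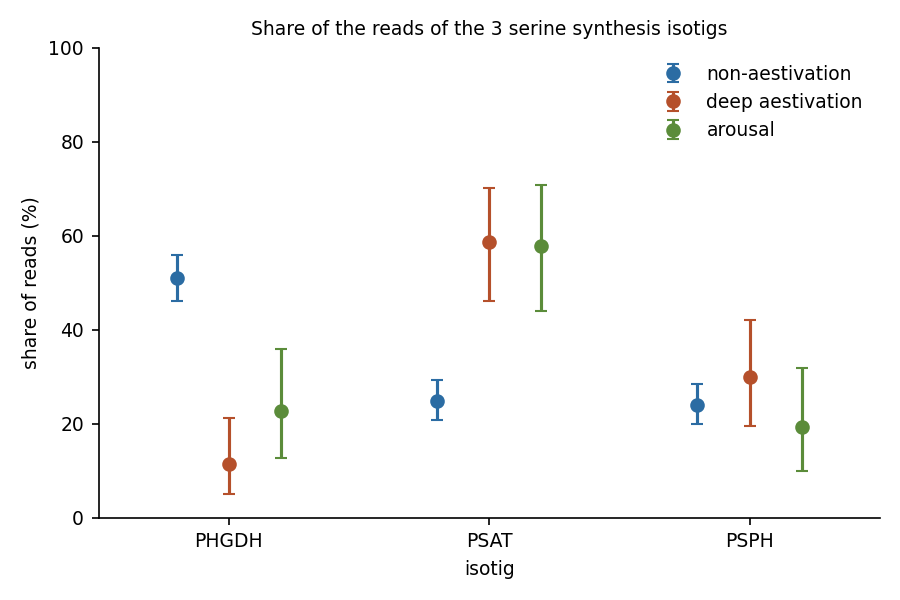
Share of reads (%) taken by each isotig within the 3 serine synthesis isotigs in each library, 1 point per library, with exact binomial 95% intervals. PHGDH holds 51.1%, 11.4% and 22.8% of the set, and PSAT 24.8%, 58.6% and 57.9%; the isotig of PHGDH was chosen by its low reads in the later libraries.

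The isotig named for SHMT, the step from serine to glycine, was nearly unread. The mitochondrial-like isotig04739 had 0, 1 and 0 reads in the 3 libraries on its 2256 bases, where the limit of 3 reads set for a count of 0 is 1.41 RPKM in the first library and 1.38 RPKM in the last. No other isotig was named for this enzyme. No change of SHMT could therefore be seen. Unique counting may drop its reads, and a form without this name would be missed, so its true level is not known.

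In the glycine cleavage system no change of GLDC was detectable at this depth. GLDC, the subunit that removes the carboxyl group of glycine, had 30, 20 and 21 reads on isotig17771, giving 32.5, 23.0 and 22.2 RPKM in non-aestivation, deep aestivation and arousal. None of the libraries stood apart. The ratio of non-aestivation to deep aestivation was 1.41 (0.777 to 2.63) and that to arousal 1.46 (0.809 to 2.69), so a difference of more than about 2.7-fold lies outside the intervals and a smaller one cannot be told from none. AMT, the tetrahydrofolate-dependent subunit, had 6, 3 and 5 reads on isotig22138 and was not compared. Dihydrolipoyl dehydrogenase (isotig13660), the subunit that the system shares with other mitochondrial complexes, had 100, 46 and 60 reads and was 2.05-fold lower in deep aestivation (1.43 to 2.97), next to the 2-fold line.

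Among the folate enzymes described here, MTHFD1-like (isotig15983) carries the GO terms of a methylenetetrahydrofolate dehydrogenase, a cyclohydrolase and a ligase, the activities that interconvert folate-bound carbon for purine and thymidylate synthesis. Whether it is the cytosolic or the mitochondrial enzyme is not settled by its name. It had 96, 65 and 43 reads and stood at 84.2, 60.5 and 36.9 RPKM. The ratio of non-aestivation to deep aestivation was 1.39 (1.01 to 1.94), within 2-fold, and at arousal it was 2.28-fold lower (1.58 to 3.35). From deep aestivation to arousal it was lower by a further 1.64-fold (1.10 to 2.47). TMM scaling moved the log2 ratio of MTHFD1-like in deep aestivation against non-aestivation from -0.48 to -0.35, nearer to equal rates. Methenyltetrahydrofolate synthetase (isotig28078), which returns 5-formyl folate to use, had 5, 4 and 4 reads on 375 bases and was not compared.

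The levels of PSPH and PSAT were also set against that of MTHFD1-like. Relative to MTHFD1-like, PSPH was 3.21-fold lower in deep aestivation (1.78 to 5.98) and 4.05-fold lower at arousal (1.92 to 9.24). PSAT was 1.70-fold lower relative to MTHFD1-like in deep aestivation (1.03 to 2.83), and at arousal the value of 1.40 had an interval of 0.794 to 2.47.

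DMGDH (isotig08989) joined the set because its name contains the words glycine dehydrogenase. It is a different enzyme from GLDC and oxidises dimethylglycine to sarcosine, with transfer of the carbon to tetrahydrofolate. It had 67, 117 and 86 reads, giving 43.1, 79.9 and 54.1 RPKM, so deep aestivation was the high library. The ratio of deep aestivation to non-aestivation was 1.85 (1.36 to 2.54), and TMM or median-of-ratios scaling put it past 2-fold. The ratio of arousal to non-aestivation was 1.25 (0.901 to 1.75). Relative to DMGDH, MTHFD1-like was 2.57-fold lower in deep aestivation (1.63 to 4.08) and 2.85-fold lower at arousal (1.72 to 4.78).

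**Figure D3:**
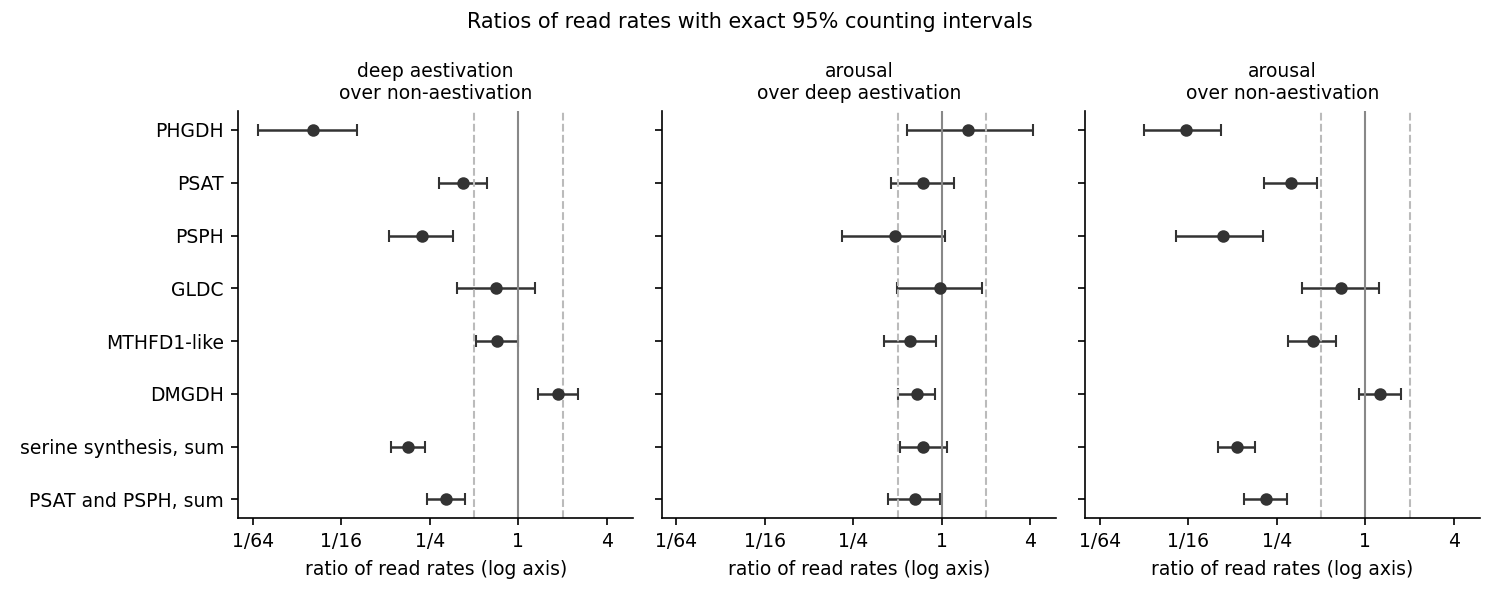
Ratio of read rates (log axis) of the 6 compared isotigs and of 2 sums in the 3 comparisons, with exact 95% counting intervals. The solid line marks equal rates and the dashed lines mark 2-fold. PHGDH is farthest left in both comparisons with non-aestivation, and in arousal over deep aestivation the intervals of MTHFD1-like, DMGDH and the sum of PSAT and PSPH exclude equal rates.

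Counted by the rule of size, 3 of the 6 compared members were lower and 0 higher in deep aestivation against non-aestivation, where 18.6% of all 10896 compared isotigs were lower and 13.1% higher. Of the 5686 compared isotigs with a protein match, as all members have, 1374 were lower and 455 higher. Without isotig13269 the count of lower members was 2 of 5. The members' median log2 difference was -0.86, or -0.49 without isotig13269, beside -0.12 over all compared isotigs and -0.36 over the 5686 with a protein match. Between arousal and non-aestivation 4 of 6 members were lower and 0 higher, and 3 of 5 without isotig13269, beside backgrounds of 18.8% lower and 12.5% higher. Of the 5686 with a protein match, 1454 were lower and 380 higher. The members' medians were -1.41, and -1.18 without isotig13269, beside -0.13 and -0.40. Between arousal and deep aestivation 1 of 6 members was lower and 0 higher, beside 8.93% and 8.06%, and the members' median was -0.49 beside -0.0014 over all isotigs. Of the 5686 with a protein match, 552 were lower and 434 higher. Both comparisons with non-aestivation use the same non-aestivation library, so their counts are not independent. TMM scaling moved the median of all isotigs up by 0.12 in deep aestivation and 0.13 at arousal against non-aestivation, and left the members' lower counts at 3 and 4.

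**Figure D4:**
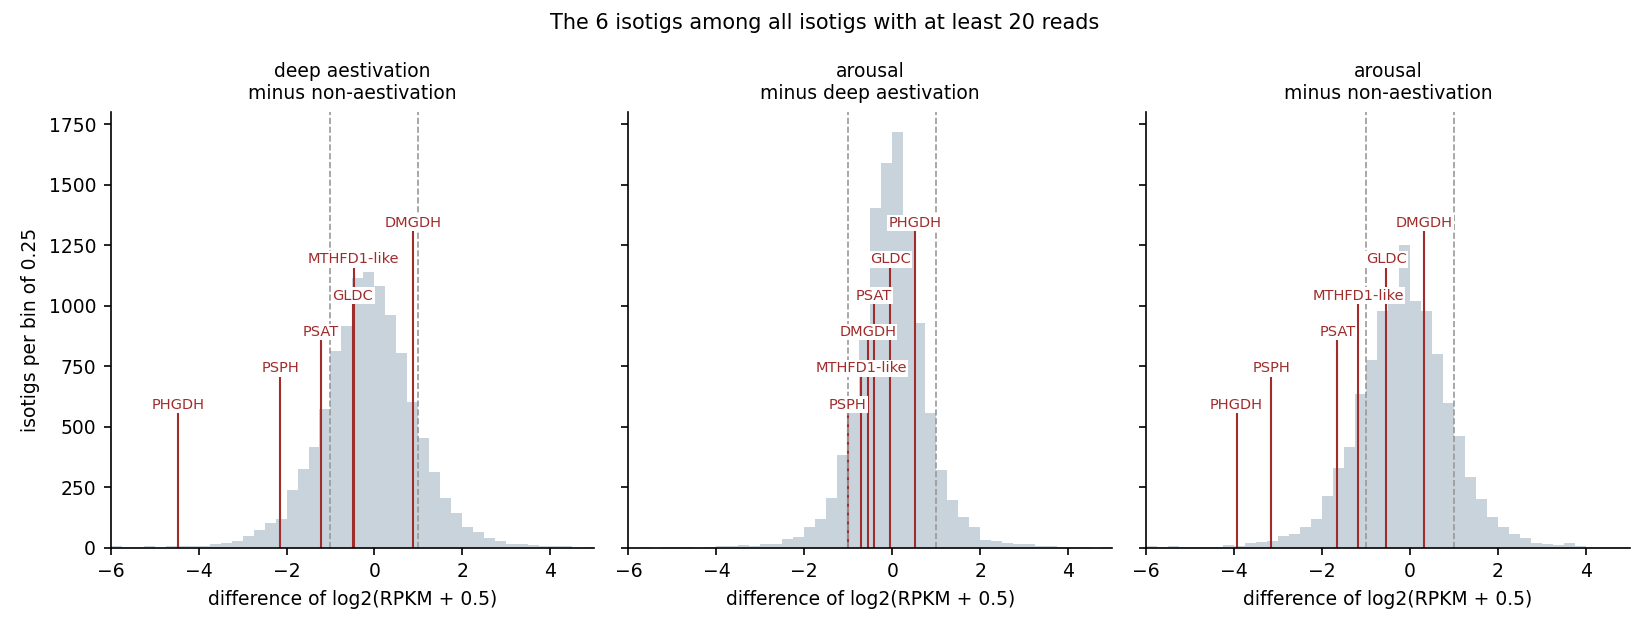
Distribution of the difference of log2(RPKM + 0.5) over the 10896 isotigs with at least 20 reads (bars, isotigs per bin of 0.25) in the 3 comparisons, with the 6 members as labelled lines of arbitrary height and dashed lines at 2-fold. PHGDH and PSPH lie in the left tail of both comparisons with non-aestivation. The axis ends at -6 and 5, which leaves out 38, 20 and 36 isotigs.

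Methionine synthase-like (isotig13085), which moves a methyl group from folate to homocysteine, is left out of the set by name and belongs to the methionine cycle. It had 127, 33 and 16 reads, 3.63-fold lower in deep aestivation (2.46 to 5.49) and 8.12-fold lower at arousal (4.81 to 14.6). Betaine-homocysteine S-methyltransferase 1-like (BHMT, isotig13345) makes methionine without folate and yields dimethylglycine, the substrate of DMGDH. It stood at 38.7, 424.7 and 358.9 RPKM. Relative to methionine synthase-like it was 39.5-fold higher in deep aestivation (25.0 to 63.9). Of the 7 compared isotigs of the methionine cycle list, 2 were higher and 2 lower in deep aestivation against non-aestivation. Over all compared isotigs 13.1% were higher and 18.6% lower. Among the 5686 with a protein match 455 were higher and 1374 lower. The list's pattern also took in a ubiquitin-like protein of the endoplasmic reticulum named for homocysteine.

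Other enzymes that hand carbon to folate or use it went in both directions. Among the 5686 compared isotigs with a protein match, 455 were higher and 1374 lower in deep aestivation against non-aestivation. In the list for folate supply and use, 1 of 3 compared isotigs was higher and 0 lower in deep aestivation, beside 13.1% and 18.6% overall. The higher one was sarcosine dehydrogenase (isotig14212), which acts on the product of DMGDH and releases glycine, with 15, 47 and 24 reads and a ratio of 3.32 (1.83 to 6.40). It was 2.13-fold lower at arousal than in deep aestivation (1.27 to 3.63). Gamma-glutamyl hydrolase-like (isotig15653), which trims the glutamate tail of folates, had 66, 85 and 107 reads and stayed within 2-fold. The isotigs with GO terms for serine, glycine or folate that are not members, a set made after values were seen, numbered 7 in the comparison, 4 higher and 2 lower in deep aestivation. An aldehyde dehydrogenase 1 family member L1-like isotig (isotig25354), whose GO terms name formyltetrahydrofolate metabolism, had 14, 33 and 25 reads and was 2.50-fold higher in deep aestivation (1.30 to 5.06). Isotig15504, matched to an unnamed protein with a GO term for methyl transfer from methylenetetrahydrofolate, had 37, 8 and 15 reads and was 4.36-fold lower (1.998 to 10.8).

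**Figure D5:**
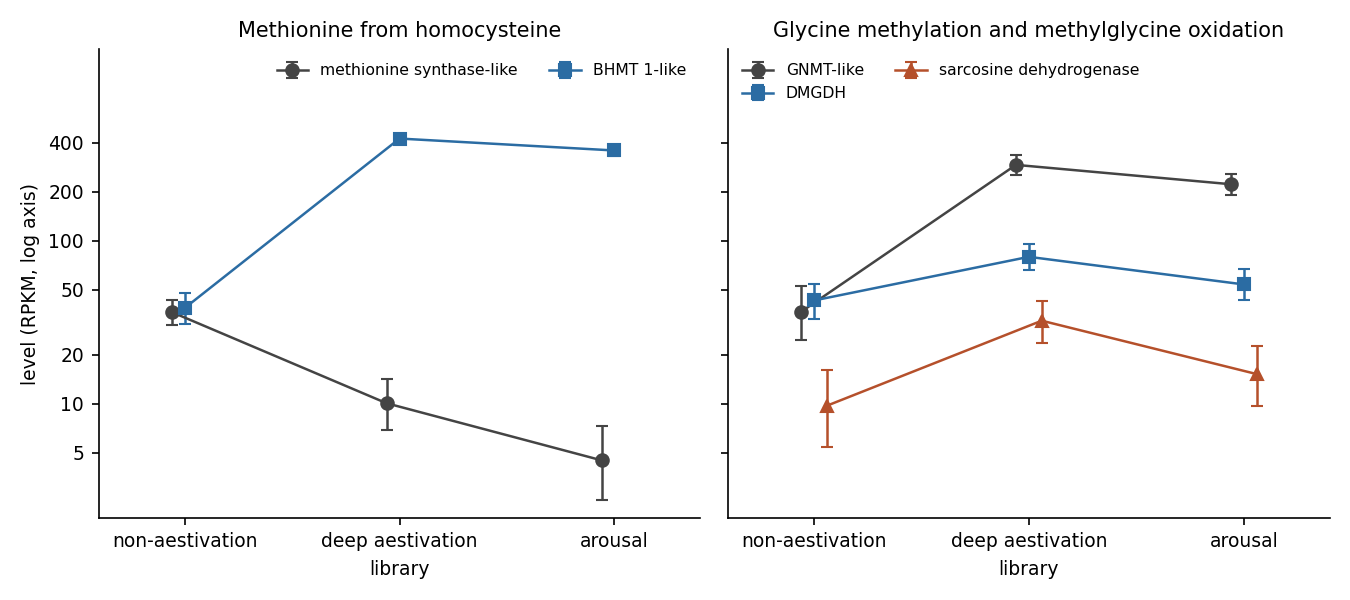
Level (RPKM, log axis) of methionine synthase-like and BHMT 1-like (left) and of glycine N-methyltransferase-like (GNMT-like), DMGDH and sarcosine dehydrogenase (right) in the 3 libraries, 1 point per library, with exact Poisson 95% intervals. Methionine synthase-like is highest in non-aestivation, and the other 4 are highest in deep aestivation. Isotig18090 and isotig13116 of the methionine cycle list are not drawn.

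In deep aestivation against non-aestivation, 18.6% of all compared isotigs were lower and 13.1% higher. Among the 5686 with a protein match 1374 were lower and 455 higher, with a median log2 difference of -0.36. In the list for other routes from and to serine and glycine, 5 of 12 compared isotigs were lower and 1 higher there, with a median log2 difference of -0.85. The higher one was GNMT-like (isotig19436), which methylates glycine to sarcosine, at 36.7, 292.9 and 222.8 RPKM. Glycyl-tRNA synthetase (isotig13130), which loads glycine for translation, had 255, 103 and 144 reads and was 2.33-fold lower in deep aestivation (1.85 to 2.96). Serine palmitoyltransferase subunit II (isotig13546), which draws serine into sphingolipids and was picked after its values were seen, had 168, 50 and 55 reads and was 3.17-fold lower (2.30 to 4.43). The pattern also took in 3 phosphoglycerate kinase isotigs, and without them 4 of 9 were lower and 1 higher. At arousal against non-aestivation 4 of 12 were lower, or 2 of 9 without those isotigs, and 1 higher. Over all compared isotigs 18.8% were lower and 12.5% higher in that comparison. Among the 5686 with a protein match 1454 were lower and 380 higher.

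Of the 5 isotigs for glycolytic steps around the branch point, 2 were lower and 0 higher in deep aestivation. Over all compared isotigs 18.6% were lower and 13.1% higher. Among the 5686 with a protein match 1374 were lower and 455 higher. Phosphoglycerate kinase, which makes 3-phosphoglycerate, had 108, 49 and 63 reads over its 3 isotigs and was 2.08-fold lower in deep aestivation (1.47 to 2.97) and 1.75-fold lower at arousal (1.27 to 2.43). Enolase, which acts further down, had 158, 84 and 76 reads over 2 isotigs, a ratio of 1.77 (1.35 to 2.34) in deep aestivation and 2.13 (1.61 to 2.83) at arousal. Its isotigs differed, with 126, 80 and 51 reads on isotig06324 and 32, 4 and 25 on isotig06325, which share 1 protein name and may divide reads. In deep aestivation isotig06325 was 7.54-fold lower (2.67 to 29.3). These steps were not tested against serine synthesis.

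The list for other non-essential amino acid enzymes had 5 of 5 compared isotigs lower in deep aestivation, but 2 of them are transglutaminases caught by the pattern, which leaves 3 of 3. Over all compared isotigs 18.6% were lower, as were 1374 of the 5686 with a protein match. Glutamate dehydrogenase 1 (isotig13118), which links glutamate to the citric acid cycle, had 524, 163 and 261 reads and was 3.03-fold lower (2.54 to 3.63). Aspartate aminotransferase 2 (isotig13106) had 490, 108 and 155 reads, 4.28-fold lower (3.47 to 5.32), and ornithine aminotransferase (isotig15012) had 249, 72 and 56 reads, 3.26-fold lower (2.50 to 4.30). The ratio of arousal to deep aestivation was 1.48 for glutamate dehydrogenase 1 (1.21 to 1.81), 1.32 for aspartate aminotransferase 2 (1.03 to 1.71) and 0.717 for ornithine aminotransferase (0.496 to 1.03), all within 2-fold.

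By the distance of centred log2(RPKM + 0.5) over the 3 libraries, the named isotigs nearest in pattern to isotig13269 among 1390 with at least 100 reads were a bisphosphate nucleotidase (isotig15905) at 0.43, an acly protein-like isotig (isotig17942) at 0.81, alpha tubulin (isotig18082) at 0.91, fibrinogen C domain-containing protein 1-like (isotig16485) at 1.04 and fructose-1,6-bisphosphatase (isotig16469) at 1.22. Fructose-1,6-bisphosphatase, an enzyme of gluconeogenesis, had 97, 11 and 18 reads. With 3 libraries such nearness describes a shape of 3 points and no more.

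Marker lists of other cells were set beside these transcripts and did not all change alike. In deep aestivation against non-aestivation, 18.6% of all compared isotigs were lower and 13.1% higher. Among the 5686 with a protein match 1374 were lower and 455 higher. Of 34 isotigs named for DNA replication and cell division, 23 were compared, and 17 of those were lower and 0 higher in deep aestivation. Some of the 17 reached 20 reads only with the non-aestivation library, such as cyclin A (isotig09612) with 16, 1 and 3 reads. All 34 isotigs summed to 832.9 RPKM in non-aestivation, 265.2 in deep aestivation and 364.5 at arousal, with 1, 5 and 2 at 0 reads. Their summed reads were 2.83-fold lower in deep aestivation (2.50 to 3.21). At arousal 9 of the 23 were higher than in deep aestivation and 0 lower, beside 8.06% and 8.93% of all compared isotigs. Among the 5686 with a protein match 434 were higher and 552 lower. The ratio for the sum of the markers was 1.28 (1.11 to 1.47). Relative to these markers, the serine synthesis sum of deep aestivation was 1.97-fold below that of non-aestivation (1.48 to 2.66) and 3.36-fold lower at arousal (2.48 to 4.61). Without isotig13269, which was chosen by its low reads, the value was 1.09 in deep aestivation (0.794 to 1.51), so PSAT and PSPH could not be told apart from these markers there, and 2.13 at arousal (1.5 to 3.08). The sum of MTHFD1-like and methenyltetrahydrofolate synthetase was 2.05-fold higher relative to them in deep aestivation (1.45 to 2.89), and at arousal the value was 1.01 (0.685 to 1.47).

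In deep aestivation against non-aestivation, 18.6% of all compared isotigs were lower and 13.1% higher. Of the 5686 with a protein match, 1374 were lower and 455 higher. Of 15 compared isotigs with germ-cell names, 5 were lower, 0 higher and 10 within 2-fold in deep aestivation. All 36 isotigs summed to 439.9 RPKM in non-aestivation, 265.5 in deep aestivation and 213.4 at arousal, with 2, 12 and 13 isotigs at 0 reads, or to 382.9, 217.9 and 180.7 RPKM over 30 isotigs without unintended matches. The sperm protein bindin had 61, 0 and 0 reads, and synaptonemal complex proteins 1 and 3, which pair chromosomes in meiosis, had 23, 0 and 1 and 18, 0 and 0. These 3 were picked after their values were seen, and others were level, such as a sperm acrosomal protein-like isotig (isotig14766) with 35, 40 and 35 reads. Of 31 compared coelomocyte isotigs, 10 were lower and 1 higher in deep aestivation. All 49 coelomocyte isotigs summed to 2098, 1203 and 1167 RPKM, with 4, 7 and 5 at 0 reads, or to 1904, 1032 and 1086 RPKM over 45 isotigs without unintended matches. Muscle markers, 43 isotigs, summed to 1911, 1925 and 1587 RPKM, with 2, 4 and 7 at 0, and markers of ciliated cells, 36 isotigs, to 339.2, 226.3 and 149.3 RPKM, with 1, 10 and 15 at 0. In deep aestivation 5 of 25 compared muscle isotigs were lower and 1 higher. Of 13 compared ciliated-cell isotigs 1 was lower and 1 higher. The part of these cells in the levels of the serine, glycine and folate enzymes was not tested. No marker list defining the respiratory tree itself was available, so its label was not checked beyond the presence of muscle, ciliated-cell and coelomocyte names.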

How the data were processed

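Poly(A) RNA libraries of 3 stages, 1 each, were compared. Per the labels' protocols, mRNA was selected with oligo(dT) beads, fragmented, and copied from random hexamer primers. Nothing in the labels says that strand was kept, so overlapping transcripts on opposite strands cannot be told apart. CASAVA 1.5 is named in the submitters' processing notes. The alignment tool was not given in the sources used here. The authors, per the file headers, deposited the count of uniquely aligned reads per isotig of a reference transcriptome, its RPKM, and the percent of its bases covered. RPKM recomputed from the counts matched within a relative tolerance of 1e-09.

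Isotigs that a table does not list count as 0 reads there. The comparisons used the 10896 of 20991 isotigs whose reads sum to 20 or more, and took the difference of log2(RPKM + 0.5), which understates changes of rare transcripts. An isotig can enter through its highest library alone, which was checked for the members and not for the lists. No p-values were made, as each stage is a single library. Ratios of read rates have exact conditional binomial 95% intervals, shares exact Clopper-Pearson intervals, levels exact Poisson intervals, and relative changes of 2 isotigs exact conditional odds ratios. Because the reads carry no molecular identifiers and may repeat 1 molecule, the intervals and the floor of 3 reads cover counting error only. Unique counting drops or splits reads of near-identical isotigs. Isotigs were not joined to the genome, so no positions are given.

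Members and lists were chosen with earlier results of these data known. Every member with at least 20 reads was named, except 1 isotig that the rule also takes and that is not reported here. It was left out of the members' counts, medians and sums. From each list the most read isotig and the largest change were named. The 5 isotigs nearest to isotig13269 were named from those with at least 100 reads. Methionine synthase-like, serine palmitoyltransferase, phosphoglycerate kinase, the GO set, the germ-cell examples and the pairs set against each other by relative change were picked after values were seen.

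Alternatives were scaling by TMM (edgeR 4.0.16), by median of ratios (DESeq2 1.42.0) or by totals that omit the 10 top isotigs, pseudocounts of 0.1 and 1, a minimum of 100 reads or none, an interval criterion and sums by protein name. Added after seeing the data were the set without isotig08989 and lists without unintended matches. This 2-fold rule was tested on simulated data with the depths of non-aestivation and deep aestivation, 10896 isotigs and 200 true changes. At 3-fold it found 90.5% of them and at 8-fold 100%, beside 593 and 564 isotigs with no true change. The simulated counts were Poisson, without variation between animals or library preparations, so these values cover counting error only. Computations used Python 3.11.15, numpy 2.4.6, pandas 2.3.3, scipy 1.17.1 and R 4.3.3.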

Additional observations from a re-analysis of the deposited data

How the results depend on the processing

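The counts of members at least 2-fold lower in deep aestivation (3) and at arousal (4) against non-aestivation stayed within 1.5 times under all 10 alternatives. Some of these could not change them. Leaving out isotig08989 removed DMGDH and the minimum of 100 reads removed GLDC, both within 2-fold. Sums by protein name joined no compared members, whose names all differ. The count of members higher in deep aestivation went from 0 to 1, DMGDH, with TMM factors and with median-of-ratios factors. The count lower at arousal than in deep aestivation went from 1 to 0 with a pseudocount of 1, and to 0 when the interval had to exclude equal rates. By construction, the first shrinks log2 differences and the second drops PSPH, whose interval included equal rates. All 72 ratios of members and role sums recomputed under another scaling lay inside the counting interval of the ratio as reported, and 0 reversed. This could hardly fail, since those scalings moved the median log2 difference of all isotigs by at most 0.13. That shift is smaller than the reach of these intervals. Without unintended matches, the lower counts went from 4 to 2 in the list of other serine and glycine routes at arousal against non-aestivation, from 5 to 3 in the list of other non-essential amino acid enzymes in deep aestivation, and from 2 to 1 in the germ-cell list at arousal against deep aestivation. No paired analysis was possible because each stage has 1 library. SHMT, AMT and methenyltetrahydrofolate synthetase had too few reads to show a change.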
